A study of Mus musculus with 16 samples.

Results

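The 34 genes described here encode the receptors for glutamate, the main excitatory transmitter of the brain, and the scaffold proteins that hold these receptors in the postsynaptic membrane of excitatory synapses. They comprise 4 AMPA receptor subunits (Gria1 to Gria4), 5 kainate receptor subunits (Grik1 to Grik5), the delta receptor subunit Grid1, 6 NMDA receptor subunits (Grin1, Grin2a, Grin2b, Grin2c, Grin2d and Grin3a), 7 metabotropic receptors (Grm2 to Grm8), 4 membrane-associated guanylate kinases or MAGUKs (Dlg1 to Dlg4), 3 SHANK proteins (Shank1 to Shank3) and 4 SAPAP proteins (Dlgap1 to Dlgap4). They were picked by gene name from a count table of 49315 genes. RNA sequencing had been done on hippocampus from wild type mice and from mice with a knockout of Kcna1, a voltage-gated potassium channel whose loss causes spontaneous seizures in mice, each on a standard diet or on a ketogenic diet, the high-fat, low-carbohydrate diet used against epilepsy. The question of the series is whether this diet alters the epileptic hippocampus, with its astrocytes in particular. Each of the 4 combinations of genotype and diet had 4 libraries, named here by the animal tag of their column. The wild type mice on the standard diet were KC890RL, KC894RLL, KC897RR and KC900RLL, and the knockout mice on it were KC872RL, KC873RR, KC888LL and KC893RL. On the ketogenic diet the wild type mice were KC842L, KC843RL, KC844RR and KC846L, and the knockout mice were KC913RR, KC916RRL, KC934R and KC935LL. Values listed for a group always follow this order. The labels used here give no strain, age, sex, seizure record or length of the diet.

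AMPA receptors carry most of the fast current at excitatory synapses, and the subunit encoded by Gria2 makes them largely impermeable to calcium. NMDA receptors need glutamate and depolarization together, pass calcium, and start many forms of synaptic plasticity; they are built from the obligatory subunit encoded by Grin1 with modulatory subunits, chiefly those of Grin2a and Grin2b in the forebrain. Kainate receptors modulate transmission and are prominent at mossy fiber synapses of the hippocampus, and metabotropic receptors signal through G proteins. MAGUK proteins such as PSD-95, the product of Dlg4, bind receptor tails, SAPAP proteins bind the MAGUKs, and SHANK proteins join the SAPAPs to the actin cytoskeleton.

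The libraries held between 13440230 and 22309504 counts, and the 34 genes took 0.833% to 1.03% of them. Kcna1 stood at 107 to 130 CPM (counts scaled to a library total of 1000000) in the 8 wild type libraries and at 43.4 to 47.2 CPM in 7 of the 8 knockout libraries. The library labelled knockout on the standard diet KC888LL had 82.0 CPM, between the genotypes, and the counts of members and the leading values that rest on it are given with and without it. Xist or Y-linked transcripts divided the libraries in a way the labels do not give: Ddx3y, a Y-linked gene, exceeded 10 CPM in KC890RL, KC872RL, KC873RR and KC846L and in 0 of the 4 knockout libraries on the ketogenic diet, and KC890RL also had 41.1 CPM of Xist. Markers of the hippocampus were present in every library, with Prox1 of the dentate gyrus at 108 to 209 CPM and Wfs1 of area CA1 at 65.0 to 223 CPM. The dentate markers Dsp (26.1 to 198 CPM), C1ql2 (31.2 to 90.8 CPM) and Plekha2 (24.3 to 73.3 CPM) varied more than Prox1. In KC872RL, KC873RR, KC893RL, KC913RR and KC934R, Dsp was at 26.1 to 50.6 CPM and C1ql2 at 66.2 to 90.8 CPM. Elsewhere Dsp was at 75.0 to 198 CPM and C1ql2 at 31.2 to 51.3 CPM.

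A total of 33 of the 34 genes, 22 receptors and 11 scaffolds, passed the filter on low counts and were tested together with 17469 genes in all. Grm6, a receptor known mainly from retinal bipolar cells, had 1 count in 1 library and 0 in the other 15, where a count of 0 allows up to 0.134 to 0.223 CPM (3 counts, counting error only). Dlg2 was listed under a second identifier, ENSMUSG00000108872, with 14 to 66 counts, kept apart here. For 18 of the 34 genes the GENCODE annotation places exon bases of another gene on their exons, on the opposite strand for Grin1, Grin2b, Shank1, Shank3 and Dlgap4 among others; the strand setting of the counting is not given, so reads of such partners cannot be told apart from theirs.

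Per kilobase of annotated exon, which allows levels to be compared between genes, the AMPA subunit Gria1 stood highest of all members. Its mean over the 16 libraries was 194.9 CPM per kb, and its lowest library lay above the highest library of every other member. Shank1 (74.84 CPM per kb), the SAPAP gene Dlgap3 (71.71), Gria2 (70.03), the kainate subunit Grik5 (58.85), Dlg4 (54.52), Grin1 (54.34), Dlg3 (45.45), Shank3 (40.53) and Grm5 (32.03) followed, and neighbours in this order overlapped across libraries. At the low end stood Grm4 (2.197 CPM per kb) and Grm8 (0.604 CPM per kb), and the highest library of Grm8 lay below the lowest of every other tested member. In all, 29 of the 33 tested members exceeded the median of 4.18 CPM per kb over 17414 tested genes with an annotated length. Exon length here is the union of all annotated exons, so a gene with long, rarely used exons is understated.

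**Figure D1:**
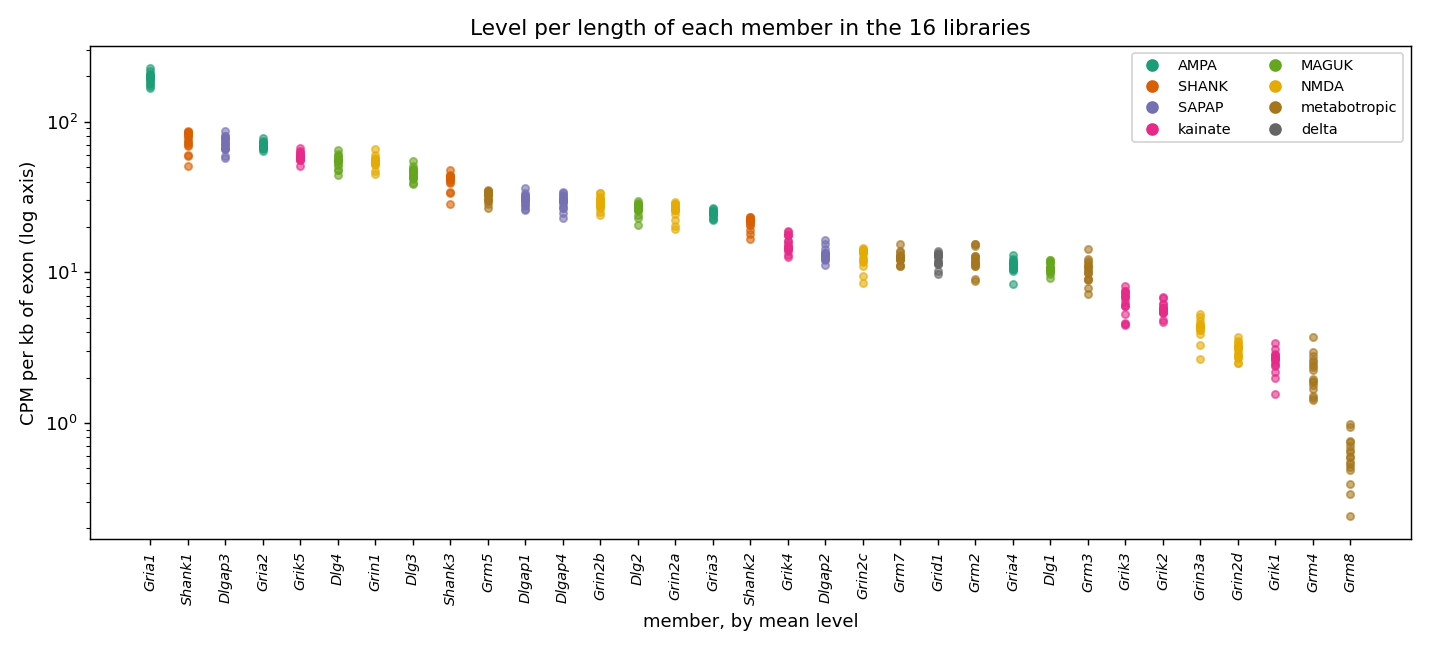
Level of each of the 33 tested members in CPM per kilobase of exon (log axis), one point for each of the 16 libraries, with members ordered by mean and coloured by family. Gria1, at a mean of 194.9, stands apart at the top and Grm8, at 0.604, at the bottom.

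Within each family the same gene held the largest share of the summed level per kb in every library. Gria1 made up 64.8% of the AMPA sum on average (range 62.2% to 69.8%) and Gria2 23.3% (19.9% to 24.8%). These shares depend on the exon lengths, 6.043 kb for Gria1 and 15.548 kb for Gria2. In CPM the wild type means on the standard diet were close, 1141.8 for Gria1 and 1083.8 for Gria2. Of the kainate sum, Grik5, an auxiliary high-affinity subunit, held 66% and Grik4, the other high-affinity subunit, 17.5%. Grin1 held 42.1% of the NMDA sum, Grin2b 22.5%, Grin2a 19.9% and Grin2c 9.79%. In CPM Grin2b (24.842 kb) stood above Grin1 (9.7 kb), with means of 696.6 and 520.8 in wild type on the standard diet. Grm5, a receptor coupled to phospholipase C, held 45.9% of the metabotropic sum, and Dlg4 39.7% of the MAGUK sum. Shank1 held 54.6% of the SHANK sum and Dlgap3 49.5% of the SAPAP sum. The plot of levels per length shows how the families are spread over this range.

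Promoter sequence from RefSeq (GRCm38.p6) was at hand for 22 of the 34 genes; Dlgap2, Gria1, Gria3, Grid1, Grik1, Grin2a, Grin2b, Grin3a, Grm4, Grm5, Shank1 and Shank2 had no entry. The 250 bases before the start are shown for Grin1, the subunit shared by all NMDA receptors, and for Shank3, the member with the smallest p-value between the genotypes on the standard diet. Both are written 5′ to 3′ on the strand of the gene. The bases that follow the window were found in 1 GENCODE transcript of Grin1 and in 0 of Shank3. GENCODE starts Shank3 at 89499623, further downstream than the start used here. Capitals mark the core TGACG of the cAMP response element (CRE) or its reverse complement CGTCA in Grin1 (chr2:25319188-25319437, minus strand, 58.8% GC) and the GC box GGGCGG or its reverse complement CCGCCC in Shank3 (chr15:89499358-89499607, plus strand, 82.4% GC).
Grin1: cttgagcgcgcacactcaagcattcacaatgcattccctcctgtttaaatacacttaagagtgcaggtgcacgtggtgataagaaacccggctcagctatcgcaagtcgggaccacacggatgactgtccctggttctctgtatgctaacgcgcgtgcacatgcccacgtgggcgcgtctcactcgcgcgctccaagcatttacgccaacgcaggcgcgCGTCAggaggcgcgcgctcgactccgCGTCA
Shank3: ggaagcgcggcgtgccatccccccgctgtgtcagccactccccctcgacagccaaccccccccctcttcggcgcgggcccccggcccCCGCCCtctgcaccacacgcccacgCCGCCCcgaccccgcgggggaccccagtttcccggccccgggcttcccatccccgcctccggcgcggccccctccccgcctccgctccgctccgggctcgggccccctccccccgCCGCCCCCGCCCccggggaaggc
The Grin1 window held 2 CRE cores and the Shank3 window 4 GC boxes, of which the last pair adjoin. On either strand, the GC box occurred in 13 of the 22 member genes with an entry, against 35.4% of 27025 genes. The CRE core occurred in 4 of 22, against 19.8% of all genes, and the palindromic motif of NRF-1 in 2 of 22, against 4.23%. A match of letters is a description of the window and no evidence of binding.

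In knockout mice the ketogenic diet went with higher transcript levels of the NMDA receptor subunits Grin2b and Grin2a. These were the only members to pass the test in any of the comparisons, 2 of 33 (edgeR quasi-likelihood test, adjusted p under 0.05), where 1.16% of all 17469 tested genes passed, 0.206% as higher and 0.950% as lower. Grin2b was 1.21 times and Grin2a 1.24 times as high on the ketogenic diet as on the standard diet. Of the members, 27 had a fitted log2 fold change above 0 and 6 below 0, with a median of 0.139, beside 0.007 over all genes, of which 51.5% lay above 0. At an unadjusted p under 0.05 stood 13 members, all higher (39.4%, against 16.9% of all genes in either direction). Separate ranges of CPM, with no overlap between the groups, were found for 7 members, against 6.39% of all genes. Grin2b, Grin1, Grik4, Grik5, Dlg2 and Shank3 lay higher on the ketogenic diet (6 of 33, against 2.68% of all genes) and the kainate subunit Grik1 lower (1 of 33, against 3.72%).

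Grin2b (chr6:135713233-136173511, minus strand), which encodes the subunit that predominates early in life and persists in the adult forebrain, had 595, 621, 701 and 672 CPM in knockouts on the standard diet and 832, 782, 773 and 751 CPM in knockouts on the ketogenic diet. All 4 libraries on the ketogenic diet lay above all 4 on the standard diet, and KC888LL was the highest of the latter. On the log2 scale the difference came to 0.277 ± 0.063 (SE; adjusted p = 0.0396 in edgeR). Wild type libraries had 695, 698, 658 and 735 CPM on the standard diet and 735, 762, 719 and 834 CPM on the ketogenic diet, and these groups overlapped (0.131 ± 0.063, adjusted p = 0.923 in edgeR).

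Grin2a (chr16:9567898-9995560, minus strand), whose subunit gives NMDA receptors of faster decay and increases after birth, had 348, 398, 469 and 364 CPM in knockouts on the standard diet and 493, 522, 466 and 479 CPM in knockouts on the ketogenic diet. The groups overlapped through KC888LL, at 469 CPM, which lay just above KC934R on the ketogenic diet; the other 3 standard-diet libraries lay below all 4. The log2 difference was 0.313 ± 0.073 (SE; adjusted p = 0.0429 in edgeR). In wild type mice Grin2a was 473, 465, 435 and 462 CPM on the standard diet and 507, 507, 480.4 and 510.2 CPM on the ketogenic diet. The wild type groups did not overlap, with the ketogenic diet higher, and the fitted value did not pass (0.127 ± 0.073, adjusted p = 0.951 in edgeR).

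Both calls lay near the threshold and depended on single libraries. Without KC872RL, KC873RR, KC913RR, KC916RRL or KC934R the adjusted p of Grin2b in edgeR was 0.159, 0.13, 0.0922, 0.0733 and 0.0549 in turn, and without KC888LL, KC893RL or KC935LL it was 0.00886, 0.0464 and 0.0416. Grin2a passed only without KC888LL (adjusted p = 0.00174), and the other 7 left-out libraries gave 0.0504 to 0.182. With the 8 knockout libraries fitted alone the adjusted p was 0.195 for Grin2b and 0.257 for Grin2a, with Xist as a covariate 0.195 and 0.246, and without the 4 libraries with Y-linked transcripts 0.671 and 0.74. The log2 fold change stayed above 0 in all of these, between 0.19 and 0.322 for Grin2b and between 0.233 and 0.41 for Grin2a.

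Grin1 had 432, 454, 520.0 and 506 CPM in knockouts on the standard diet and 580.1, 553, 521 and 522 CPM on the ketogenic diet. The groups were just apart, at 519.99 CPM in KC888LL against 520.83 CPM in KC934R. The fold change did not pass (0.186 ± 0.069, adjusted p = 0.181 in edgeR). Wild type libraries had 503, 525, 528 and 526 CPM on the standard and 525, 551, 544 and 640.3 CPM on the ketogenic diet, where KC846L stood high. The remaining NMDA subunits Grin2c, Grin2d and Grin3a, expressed mainly in cerebellum, in interneurons and in development, had log2 fold changes of 0.152, 0.08 and 0.132 and did not pass.

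**Figure D2:**
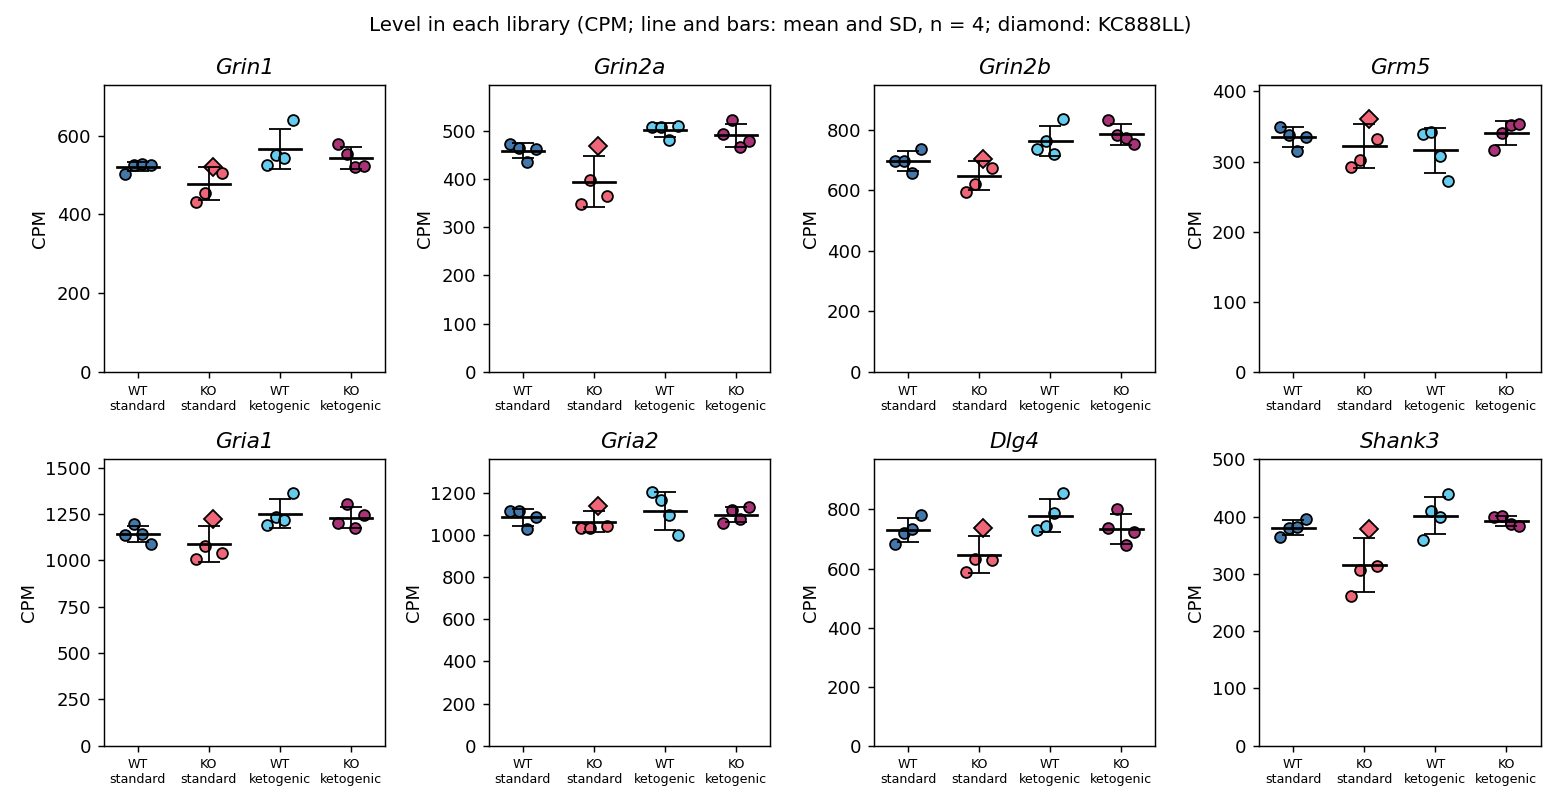
CPM of 8 members in each library (points; diamond, KC888LL) by group, with the group mean and SD (line and bars, n = 4). Grin2a, Grin2b and Shank3 sit lowest in knockouts on the standard diet, where KC888LL is the highest of its group in all 8 panels.

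Among AMPA receptors, Gria1 had 1009, 1077, 1226 and 1039 CPM in knockouts on the standard diet and 1203, 1302, 1175 and 1243 CPM on the ketogenic diet. KC888LL lay within the range of the ketogenic diet and the other 3 libraries below it (0.179 ± 0.064, adjusted p = 0.166 in edgeR). Among wild type mice Gria1 stood at 1138, 1197, 1144 and 1089 CPM on the standard and 1192, 1236, 1215 and 1364 CPM on the ketogenic diet. The lowest library on the ketogenic diet lay just under the highest on the standard diet (0.133 ± 0.064, adjusted p = 0.927).

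Gria2 was flatter, with 1031, 1034, 1137 and 1043 CPM in knockouts on the standard diet and 1056, 1119, 1074 and 1133 CPM on the ketogenic diet. Wild type mice had 1111, 1113, 1027 and 1084 CPM on the standard and 1204, 1163, 1092 and 999 CPM on the ketogenic diet. All 4 groups overlapped, and no contrast of Gria2 had an adjusted p under 0.747 in edgeR. Gria3, an X-linked gene, and Gria4 ranged over group means of 231 to 249 CPM and of 65.6 to 73.9 CPM, and neither passed in any comparison.

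Of the kainate receptors, Grik5 had 262, 288, 296 and 292 CPM in knockouts on the standard diet and 319.7, 323, 331 and 306 CPM on the ketogenic diet, with no overlap (0.168 ± 0.058, adjusted p = 0.152 in edgeR). Wild type mice had 297, 293, 310.1 and 302 CPM on the standard and 289, 312, 300.4 and 344 CPM on the ketogenic diet, overlapping with both knockout groups. Grik4, enriched in area CA3, had 77.8, 84.5, 87.3 and 82.97 CPM in knockouts on the standard diet and 111, 96.5, 106 and 112 CPM on the ketogenic diet. These did not overlap, and the fold change narrowly missed the threshold (0.355 ± 0.087, adjusted p = 0.0535 in edgeR). Grik1, a subunit more typical of interneurons, was the one kainate gene with a negative value (-0.201 ± 0.131, adjusted p = 0.458), and Grik2 and Grik3 gave 0.107 and 0.116. The delta receptor Grid1, which links to presynaptic neurexin through cerebellin, had 60.7, 58.3, 79.2 and 67.9 CPM on the standard and 70.1, 78.6, 67.6 and 80.2 CPM on the ketogenic diet in knockouts, with overlap (0.155 ± 0.084). Wild type mice had 76.8, 68.7, 77.96 and 76.7 CPM of Grid1 on the standard and 76.98, 82.4, 79.1 and 72.3 CPM on the ketogenic diet, again overlapping.

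Metabotropic receptors showed no common direction in knockouts, with 3 of 6 tested genes above 0 and a median of -0.076. Grm5 had 292, 303, 361 and 332 CPM on the standard diet and 316, 341, 353 and 353 CPM on the ketogenic diet. KC888LL was the highest of these 8 libraries (0.082 ± 0.076, adjusted p = 0.629 in edgeR). In wild type mice Grm5 was 349, 338, 315 and 336 CPM on the standard and 339.5, 342, 308 and 273 CPM on the ketogenic diet, where KC846L was the lowest of all 16.

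Among the scaffolds 10 of 11 had values above 0 with the diet in knockouts, with a median of 0.201, and 0 of 11 passed. At an unadjusted p under 0.05 stood 7 of 11, to be read beside the shares of all genes given above for this comparison. The one below 0 was Dlg1, the product of which is SAP97 (-0.09 ± 0.079). Shank3, whose loss in humans causes Phelan-McDermid syndrome, had 262, 307, 378 and 314 CPM on the standard and 399, 400.1, 388 and 383 CPM on the ketogenic diet in knockouts. These did not overlap, although KC888LL, at 378 CPM, came close to the lowest ketogenic library at 383 CPM. The value was 0.316 ± 0.082 with an adjusted p of 0.0682 in edgeR. Wild type mice had 365, 381, 382 and 396 CPM on the standard and 359.7, 409, 399 and 438 CPM on the ketogenic diet, overlapping.

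Shank1, the member of the highest level in its family, had 530.4, 617, 799 and 635 CPM in knockouts on the standard diet and 892, 918, 738 and 757 CPM on the ketogenic diet. KC888LL again lay within the ketogenic range and the other 3 below it (0.356 ± 0.1, adjusted p = 0.0929 in edgeR). Wild type libraries stood at 766, 728, 829.7 and 871 CPM on the standard and 842, 874, 901 and 893 CPM on the ketogenic diet. Shank2 gave 0.229 ± 0.067 in knockouts (adjusted p = 0.101).

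Dlg4 had 588, 633, 738 and 630.1 CPM in knockouts on the standard diet and 736, 803, 679 and 722 CPM on the ketogenic diet, with overlap (0.183 ± 0.073, adjusted p = 0.214 in edgeR). Wild type values were 683, 720.0, 733 and 781 CPM on the standard and 729.8, 743, 787 and 854 CPM on the ketogenic diet. Dlg2, the product of which is PSD-93, had 333, 373, 423 and 389.8 CPM in knockouts on the standard diet and 481, 436, 436 and 457 CPM on the ketogenic diet. Its groups did not overlap (0.253 ± 0.065, adjusted p = 0.0671). Dlgap3 had 260.0, 269, 318 and 304 CPM on the standard and 392, 353, 361 and 296 CPM on the ketogenic diet in knockouts, with KC935LL among the standard-diet values (0.285 ± 0.085, adjusted p = 0.105). Its wild type values were 302, 297, 325 and 364 CPM on the standard and 322, 329, 346 and 348 CPM on the ketogenic diet. Dlg3, Dlgap1, Dlgap2 and Dlgap4 gave 0.167, 0.085, 0.139 and 0.201 and did not pass.

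**Figure D3:**
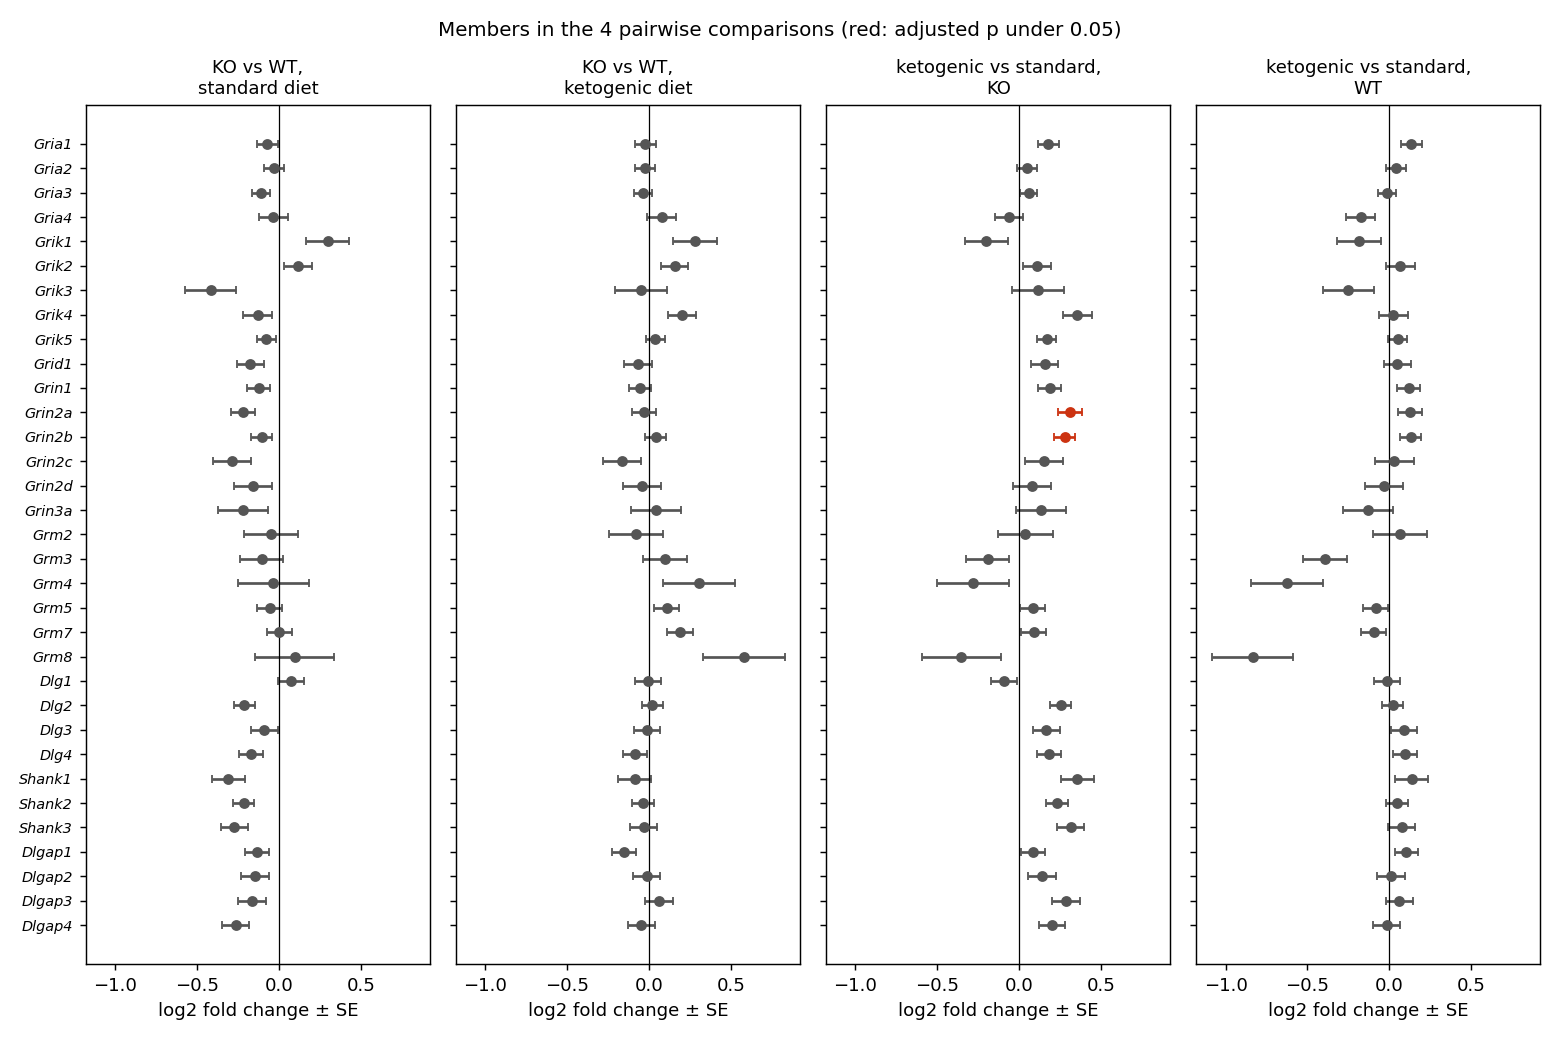
Log2 fold change with its standard error (bars) of the 33 tested members in the 4 pairwise comparisons, with members that passed in red. Only Grin2a and Grin2b, with the diet in knockouts, passed; most points lie left of 0 between the genotypes on the standard diet and right of 0 with the diet in knockouts, and both comparisons use the standard-diet knockout libraries.

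Between the genotypes on the standard diet, 0 of 33 members passed in edgeR, where 0.00572% of all tested genes did. DESeq2 and limma-voom also called 0, where 0.522% of 33151 and 0.00572% of 17469 genes passed. DESeq2 was run without the filter on low counts here and below. The fitted values lay below 0 in knockouts for 28 members and above 0 for 5, with a median of -0.123, beside 0.004 over all genes, of which 51.1% lay above 0. At an unadjusted p under 0.05 stood 10 members in edgeR, 9 of them lower (30.3%, against 14.3% of all genes in either direction), and 11 each in DESeq2 and limma-voom. Of the 11 scaffolds, 10 lay below 0 with a median of -0.172, and of the 22 receptors 18, with a median of -0.091. The groups did not overlap for 2 of 33 members, against 5.86% of all genes: Grin2c was lower in knockouts, as were 2.89% of all genes, and Grik1 higher, as were 2.97%. This comparison and that of the diets in knockouts use the same 4 knockout libraries on the standard diet, so that their values are not independent of each other.

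Shank3 had the smallest p, with 381 ± 12.8 CPM (SD, n = 4) in wild type and 315 ± 47.5 CPM in knockouts from the library values given above. KC872RL was lowest at 262 CPM, and KC888LL lay among the wild type libraries. The log2 difference was -0.273 ± 0.082 (adjusted p = 0.202 in edgeR). Dlgap4, a SAPAP scaffold, had 251, 247, 275 and 284 CPM in wild type and 194, 209, 252 and 224 CPM in knockouts on the standard diet. Again only KC888LL reached the wild type range (-0.264 ± 0.081, adjusted p = 0.202). On the ketogenic diet Dlgap4 was 253, 258, 264 and 270.5 CPM in wild type and 288, 259.8, 226 and 237 CPM in knockouts, with overlap. Next by p were Dlg2 (-0.212 ± 0.065), Shank2 (-0.216 ± 0.067), Shank1 (-0.308 ± 0.1) and Grin2a (-0.218 ± 0.073), with adjusted p of 0.202 to 0.212 in edgeR.

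Of the 22 receptors, 4 stood at an unadjusted p under 0.05 in edgeR between the genotypes on the standard diet (18.2%, against 14.3% of all genes): Grin2a, given above, Grik3, Grin2c and Grik1. Grik3, a low-affinity kainate subunit, had a mean of 66.8 ± 4.95 CPM in wild type and 50.1 ± 12.1 CPM in knockouts (-0.416 ± 0.156, adjusted p = 0.26 in edgeR). Grik1 had 16.6 ± 2.29 CPM in wild type and 20.4 ± 1.81 CPM in knockouts (0.297 ± 0.131, adjusted p = 0.317). Grin2c had 67.8 ± 3.34 CPM and 55.5 ± 5.42 CPM (-0.286 ± 0.118, adjusted p = 0.288). The values of Gria1, Gria2, Grin1, Grin2b and Grm5 were -0.07, -0.03, -0.123, -0.106 and -0.056, and without KC888LL -0.137, -0.07, -0.171, -0.151 and -0.12, with adjusted p of 0.174 to 0.569 in edgeR.

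The comparisons that use the knockouts on the standard diet turned on the library KC888LL. Without it, 9 of 33 members passed as lower in knockouts on the standard diet, where 2.85% of 17725 genes passed as lower, 2.88% as higher and 5.73% in either direction; without any other of the 8 libraries 0 members and 0% of all genes passed. In edgeR these were Shank3 (-0.376, adjusted p = 0.00587), Grin2a (-0.316, 0.00625), Shank1 (-0.432, 0.00752), Shank2 (-0.291, 0.0124), Dlgap4 (-0.342, 0.0176), Dlg2 (-0.272, 0.0206), Grik3 (-0.58, 0.0289), Grid1 (-0.274, 0.0408) and Dlg4 (-0.246, 0.0466). They comprise all 3 SHANK genes, 2 MAGUKs, a SAPAP and 3 receptor subunits. Without KC888LL the knockouts on the standard diet are KC872RL and KC873RR, both with Y-linked transcripts, and KC893RL. Of the wild type libraries on the standard diet only KC890RL had such transcripts, and no knockout library on the ketogenic diet did. The part of sex in the calls without KC888LL was not tested. In the comparison of the diets in knockouts, 11 members passed as higher without KC888LL, where 2.58% of genes passed as higher, 3.6% as lower and 6.18% in either direction. In edgeR these were Grin2a (0.41, adjusted p = 0.00174), Shank3 (0.418, 0.00379), Shank1 (0.479, 0.00495), Grin2b (0.322, 0.00886), Shank2, Dlg2, Gria1, Grik4, Dlgap3, Dlg4 and Dlgap4. Leaving out any of the other 7 libraries, that comparison gave 0 to 2 member calls: 0 without KC872RL, KC873RR, KC913RR, KC916RRL or KC934R, where 0.158%, 0.26%, 0.49%, 0.496% and 1.08% of all genes passed, 1 without KC893RL (Grin2b; 1.23%), and 2 without KC935LL (Dlgap3 and Grin2b; 1.04%).

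The counts without adjustment, the medians and the separate ranges also moved when KC888LL was left out, for the members and for all genes. Between the genotypes on the standard diet, 20 members instead of 10 stood at an unadjusted p under 0.05 in edgeR (60.6%, against 21.3% of all genes), 19 of them lower, and the median went from -0.123 to -0.171. Ranges of CPM were then separate for 17 of 33 members, 1 higher and 16 lower in knockouts, where 22.1% of all genes were separate, 10.8% as higher and 11.4% as lower. With the diet in knockouts, 17 members instead of 13 stood at an unadjusted p under 0.05 (51.5%, against 21.8% of all genes), all higher, and the median went from 0.139 to 0.201. Ranges were separate for 17 of 33, 15 higher and 2 lower on the ketogenic diet, where 16.1% of all genes were separate, 7.65% as higher and 8.42% as lower. With all libraries in, these shares of all genes were 5.86% and 6.39%. Grin1 gave 0.232 (adjusted p = 0.0614) and Grik5 0.192 (0.0772) with the diet in knockouts without KC888LL, neither passing in edgeR. In that comparison leaving it out moved Grid1 from 0.155 to 0.255 (adjusted p = 0.0519 in edgeR), Grm5 from 0.082 to 0.145 (0.279), Grik3 from 0.116 to 0.279 (0.268) and Dlgap1 from 0.085 to 0.134 (0.319). It also moved Grin2d from 0.08 to 0.237 (adjusted p = 0.16 in edgeR) and Grin3a from 0.132 to 0.201 (0.529).

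Set against the mean of the 8 wild type libraries, the median deviation of the 33 members on the log2 scale was -0.264 in KC872RL, -0.182 in KC873RR and -0.127 in KC893RL. It was -0.028 in KC888LL, inside the range of -0.044 to 0.054 seen in single wild type libraries. Knockouts on the ketogenic diet spanned -0.023 to 0.04. For the scaffolds alone the medians were -0.355, -0.25, -0.191 and -0.05 in KC872RL, KC873RR, KC893RL and KC888LL. In each of these 10 of 11 scaffolds lay below the wild type mean. The count was also 10 in the wild type library KC894RLL and the ketogenic knockout KC935LL, and 9 in the wild type libraries KC890RL and KC897RR. KC872RL, KC873RR and KC893RL had Kcna1 at the level of the other knockouts. They lay below all 8 wild type libraries in the medians of all members and of the scaffolds. KC888LL, whose Kcna1 goes against its label, lay within the wild type range of both. For the receptors alone the medians were -0.183, -0.111, -0.079 and 0.043 in KC872RL, KC873RR, KC893RL and KC888LL. There the wild type library KC846L, at -0.143, lay below KC873RR and KC893RL. The medians of the knockouts on the standard diet were spread more widely than those of any other group.

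**Figure D4:**
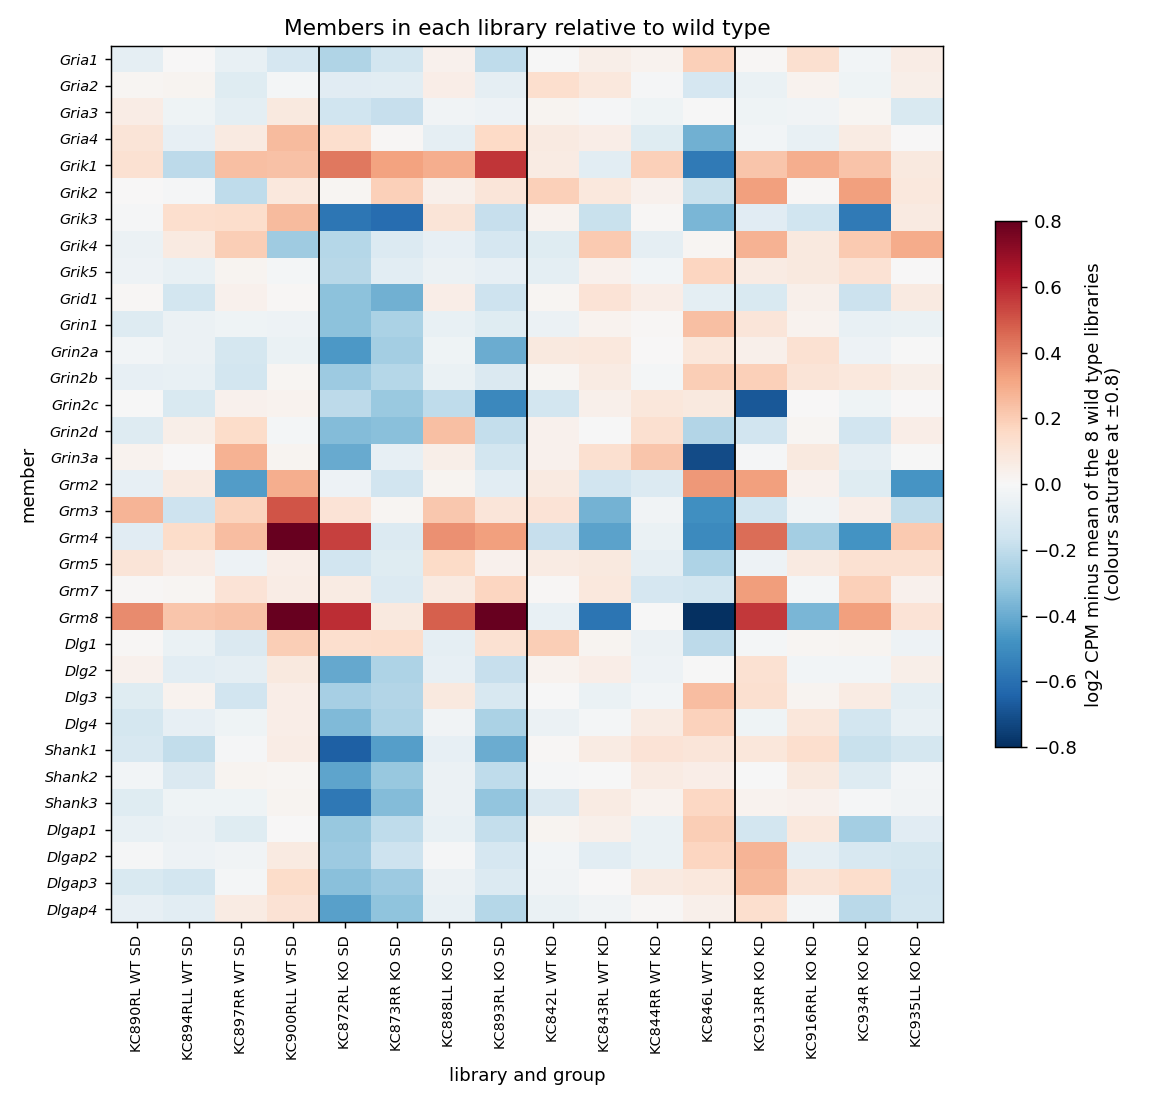
Log2 CPM of each tested member (rows) in each library (columns, grouped by genotype and diet) minus the mean of the 8 wild type libraries, with colours saturating at ±0.8. Grin2a and 10 of the 11 scaffolds have their lowest value of the 16 libraries in KC872RL, while the scaffold Dlg1 is at 0.136 there and lowest in KC846L (-0.208).

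Markers of cell types also differed between libraries, most of all in KC872RL and KC873RR for astrocytes and microglia. All markers of astrocytes, microglia, oligodendrocytes and neurons listed here were detected in every library. The summed CPM of 6 astrocyte markers was 1858 to 2062 in wild type mice on the standard diet and 1828 to 1896 on the ketogenic diet, but 4413 in KC872RL, 3332 in KC873RR, 2275 in KC893RL and 1940 in KC888LL. The sum of 6 microglia markers was 369 and 352 in KC872RL and KC873RR and 163 to 208 CPM elsewhere. Pan-neuronal markers summed to 5250 and 5228 CPM in KC872RL and KC873RR and to 5740 to 6443 CPM in the other 14 libraries. KC893RL, with a scaffold median of -0.191, had sums of 184 CPM for microglia and 5869 CPM for pan-neuronal markers. Both lay within the range of the wild type libraries. Between the genotypes on the standard diet, 6 of 6 astrocyte and 6 of 6 microglia markers had values above 0 and 6 of 6 pan-neuronal markers below 0, with 0 calls in edgeR. Values also lay below 0 for 4 of 4 excitatory neuron (median -0.201), 4 of 4 CA1 (-0.222) and 4 of 4 CA3 markers (-0.212), and above 0 for 5 of 6 interneuron (0.147), 4 of 5 thalamus (0.345), 5 of 5 striatum (0.165) and 4 of 4 red cell markers (0.332), again with 0 calls. Choroid plexus markers lay below 0 for 4 of 4 (median -0.301, 0 called). Dentate granule markers went both ways, with 2 above and 2 below 0 (median 0.458, 0 called). Among them Dsp was at 28.6, 37.6 and 26.1 CPM in KC872RL, KC873RR and KC893RL and at 118 CPM in KC888LL. C1ql2 was at 81.1, 76.9 and 66.2 CPM in the former and at 38.4 CPM in KC888LL. In bulk tissue, fewer cells of a type and less RNA per cell cannot be told apart, and the part of this in the results was not tested.

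On the ketogenic diet the knockout libraries KC913RR and KC934R had astrocyte sums of 3361 and 2771 CPM, and their scaffold medians were 0.093 and -0.104. The sum of KC913RR was carried by Gfap, at 2018 CPM, a marker of reactive astrocytes; Aqp4 was at 244 CPM, while Aldoc (449.7 CPM), Slc1a3 (483 CPM), S100b (39.5 CPM) and Gja1 (126 CPM) were each at their lowest of the 16 libraries there. In KC872RL, Gfap made up 2327 of 4413 CPM, and Slc1a3, S100b and Gja1 stood at 649.6, 87.5 and 392 CPM. KC916RRL and KC935LL, with astrocyte sums of 1896 and 1842 CPM, had scaffold medians of 0.035 and -0.078. With the diet in knockouts, 6 of 6 oligodendrocyte markers fell in edgeR, from summed levels of 4849 to 5315 CPM to 1870 to 3495 CPM. In wild type mice these 6 markers also had values below 0 with the diet (median -0.487), with 0 calls in edgeR. Among the other marker lists in knockouts, values with the diet lay above 0 for 6 of 6 pan-neuronal (median 0.144, 0 called), 4 of 4 CA1 (0.318, 0 called) and 4 of 4 CA3 markers (0.25, 0 called). They lay below 0 for 6 of 6 microglia (median -0.643, 0 called), 5 of 6 astrocyte (-0.423, 1 called), 5 of 5 thalamus (-0.593, 1 called) and 4 of 4 red cell markers (-1.994, 3 called). The part of these in the rise of Grin2a and Grin2b was not tested. Choroid plexus markers varied from 30.2 to 1049 CPM over libraries, with high values in wild type groups too. With the diet in knockouts 3 of 4 lay below 0 (median -2.912, 0 called). Their sums were 46.3 to 546 CPM on the standard and 31.4 to 51.7 CPM on the ketogenic diet.

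**Figure D5:**
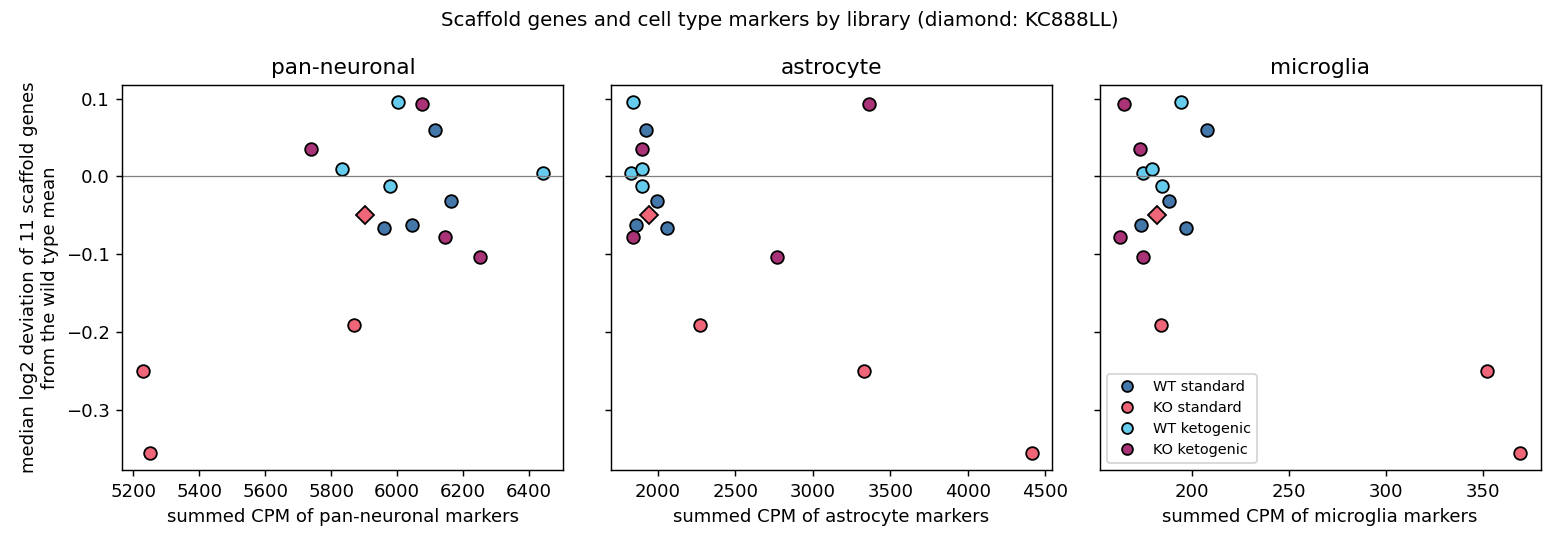
Median log2 deviation of the 11 scaffold genes from the wild type mean (vertical axis) against the summed CPM of pan-neuronal, astrocyte and microglia markers, one point for each library (diamond, KC888LL). KC872RL and KC873RR, at -0.355 and -0.25, combine the lowest neuronal with the highest microglia sums, and KC913RR, whose astrocyte sum of 3361 includes 2018 of Gfap, has 0.093.

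Sex-linked transcripts were also unevenly spread, being Y-linked in KC872RL and KC873RR of the knockouts on the standard diet. Without the 4 libraries with Y-linked transcripts, 25 of 33 members lay below 0 between the genotypes on the standard diet, with a median of -0.039. With the diet in knockouts 23 of 33 then lay above 0, with a median of 0.055. In edgeR 0 members passed in either, where 0% and 0.0169% of all 17755 genes passed. The knockouts on the standard diet are then only KC888LL, with Kcna1 at 82.0 CPM, and KC893RL, so that leaving out the Y-linked libraries also raises the weight of KC888LL. KC893RL by itself had 24 of 33 members below the wild type mean, with the median of -0.127 given above. In single wild type libraries 7 (KC900RLL) to 21 (KC894RLL) of the 33 members lay below that mean. KC872RL and KC873RR had the lowest member medians of the 16 libraries, and KC893RL, with 0.444 CPM of Ddx3y, the next lowest. The part of sex in these values was not tested. With Xist as a covariate 0 members passed in any of the 5 comparisons in edgeR, where 0% to 0.0401% of all 17469 genes passed.

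Between the genotypes on the ketogenic diet, which uses none of the libraries of the preceding genotype comparison, 0 of 33 members passed in edgeR, where 0.0172% of tested genes did. DESeq2 and limma-voom also called 0, where 0.124% of 33151 and 0.0114% of 17469 genes passed. Each of the 3 tools gave 5 members at an unadjusted p under 0.05 (15.2%, against 9.22% of all genes in edgeR). In edgeR 14 members lay above and 19 below 0 with a median of -0.015, beside 0.003 over all genes. Ranges were separate for 0 members, against 3.98% of all genes (2% higher and 1.98% lower in knockouts). Grm7, a presynaptic receptor that dampens glutamate release, had the smallest p, with 71.7, 75.5, 64.9 and 64.3 CPM in wild type and 90.05, 70.5, 81.3 and 73.00 CPM in knockouts. KC913RR and KC934R lay above all wild type libraries and the other pair among them (0.189 ± 0.077, adjusted p = 0.487). On the standard diet Grm7 was 71.8, 72.04, 77.1 and 74.3 CPM in wild type and 74.5, 66.02, 75.04 and 80.3 CPM in knockouts (0.003 ± 0.078).

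Grik4 came next by p, with 85.5, 105, 86.97 and 92.3 CPM in wild type on the ketogenic diet against the knockout values given above. KC843RL of the wild type stood within the knockout range (0.2 ± 0.087, adjusted p = 0.503 in edgeR). The other members at an unadjusted p under 0.05 were Grm8 (0.578 ± 0.25), Grik1 (0.281 ± 0.132) and, as the one with a negative value, Dlgap1 (-0.154 ± 0.072). These 5 were 0 without KC846L, KC913RR or KC934R. Scaffolds had a median of -0.033 and receptors of 0.039.

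In wild type mice the diet gave 0 of 33 member calls in edgeR, where 0.0114% of tested genes passed. DESeq2 and limma-voom also gave 0, where 0.0362% of 33151 and 0.0114% of 17469 genes passed. At an unadjusted p under 0.05 stood 3 members in edgeR (9.09%, against 5.46% of all genes) and 5 each in DESeq2 and limma-voom. The 3 in edgeR were Grm8, Grm3 and Grm4, with values below 0, while Grm7, Grm5 and Grm2 gave -0.096, -0.083 and 0.067. Of the 33 members, 20 lay above 0 and 13 below 0, with a median of 0.031 beside 0 over all genes. Ranges were separate for 2 of 33 members, against 4.88% of all genes: Grin2a was higher on the ketogenic diet, as were 2.46% of all genes, and Grm8 lower, as were 2.42%.

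Grm8, a presynaptic receptor and the lowest tested member, had 6.53, 5.86, 5.91 and 9.28 CPM in wild type fed the standard diet and 4.82, 3.35, 5.01 and 2.37 CPM on the ketogenic diet. All 4 ketogenic libraries lay below all 4 standard ones (-0.835 ± 0.249, adjusted p = 0.761 in edgeR). In knockouts it was 7.54, 5.30, 6.98 and 9.71 CPM on the standard and 7.43, 3.89, 6.30 and 5.40 CPM on the ketogenic diet, overlapping. Grm3, a receptor that astrocytes also carry, had 37.3, 27.6, 34.9 and 43.7 CPM in wild type on the standard and 33.4, 23.8, 30.3 and 22.00 CPM on the ketogenic diet. KC894RLL, low on the standard diet, produced the overlap (-0.393 ± 0.132, adjusted p = 0.781). In knockouts Grm3 was 33.3, 31.2, 35.9 and 33.05 CPM on the standard and 27.6, 30.3, 32.1 and 26.96 CPM on the ketogenic diet (-0.191 ± 0.132). Grm4 gave -0.622 ± 0.22 in wild type mice (adjusted p = 0.798).

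The interaction tests whether the effect of the diet differed between the genotypes, and 0 of 33 members passed in edgeR, as did 0% of all tested genes. DESeq2 and limma-voom also called 0 members, where 0.0121% of 33151 and 0% of 17469 genes passed. At an unadjusted p under 0.05 stood 2 members in edgeR, 2 in DESeq2 and 3 in limma-voom. The smallest p-values belonged to Grik4 (0.33 ± 0.123, adjusted p = 0.654 in edgeR) and Dlg2 (0.232 ± 0.092, adjusted p = 0.654). Grik4 was 88.4, 95.9, 105 and 74.8 CPM in wild type on the standard diet, the widest of its 4 groups, and Dlg2 was 454, 418, 421 and 466 CPM in wild type on the standard and 452, 460.3, 431 and 442 CPM on the ketogenic diet. Grin2a and Grin2b, which rose in knockouts, gave 0.185 ± 0.103 and 0.146 ± 0.089, so their response to the diet was not shown to differ between the genotypes. Of the members 29 lay above 0 with a median of 0.13, beside 0.005 over all genes, of which 51% lay above 0 and 7.48% stood at an unadjusted p under 0.05 (members 6.06%). Without KC888LL 31 lay above 0 with a median of 0.195, 11 stood at an unadjusted p under 0.05 (33.3%, against 11.5% of all genes) and 0 passed in edgeR. Grik4 and Dlg2 then gave 0.356 (adjusted p = 0.288) and 0.289 (adjusted p = 0.204).

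The ratio of Grin2a to Grin2b, whose balance shifts in development and sets the time course of NMDA currents, was compared per kilobase. On the log2 scale its mean was -0.132 ± 0.048 (SD, n = 4) in wild type and -0.251 ± 0.135 in knockouts on the standard diet, and -0.134 ± 0.074 and -0.209 ± 0.078 on the ketogenic diet. The widest spread lay among knockouts on the standard diet, from -0.414 in KC893RL to -0.111 in KC888LL. Exact two-sided permutation tests gave p = 0.229 and 0.2 between the genotypes on the standard and ketogenic diet, 0.629 between the diets in knockouts and 0.971 in wild type; the smallest p that 70 arrangements allow is 0.0286. Without KC888LL the exact permutation p was 0.0571 between the genotypes on the standard diet (difference -0.165, against -0.119 with it) and 0.286 between the diets in knockouts (0.088, against 0.042).

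The ratio of Gria1 to Gria2, which bears on the calcium permeability of AMPA receptors, was also taken per kilobase. Its log2 means were 1.438 ± 0.068 (SD, n = 4) and 1.396 ± 0.063 in wild type and knockouts on the standard diet. The size of these means rests largely on the exon lengths (6.043 and 15.548 kb), and differences between groups do not depend on them. The means were 1.532 ± 0.199 and 1.531 ± 0.043 on the ketogenic diet. In knockouts each library on the ketogenic diet, at 1.494 to 1.582, lay above each on the standard diet, at 1.332 to 1.472. The difference was 0.135 with an exact permutation p of 0.0286, the smallest possible, and 0.229 after Benjamini-Hochberg adjustment over the 8 ratio tests. It was 0.161 without KC888LL. The other 3 Gria1 to Gria2 contrasts had exact permutation p of 0.4 to 1. In wild type mice on the ketogenic diet KC846L stood out at 1.813.

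Other genes of the excitatory synapse, a list of 77 of which 76 were tested, included AMPA receptor auxiliary subunits, synaptic adhesion proteins, kinases, and glutamate transporters and enzymes; Slc17a7, Nptx1 and Slc1a3 of this list also serve as cell type markers. With the diet in knockouts 2 of 76 passed, both higher, 56 lay above 0 and the median was 0.095. Shisa6, an auxiliary subunit that keeps AMPA receptors in the postsynaptic density, had 137, 156, 207 and 161 CPM on the standard and 261, 223, 222 and 226 CPM on the ketogenic diet in knockouts. All ketogenic libraries lay above all standard ones, KC888LL being the nearest (0.495 ± 0.108, adjusted p = 0.0351 in edgeR). Wild type mice had 213, 228, 211 and 172 CPM on the standard and 209.6, 241, 208 and 222 CPM on the ketogenic diet. Nrxn3, a presynaptic adhesion molecule, had 149, 144, 174 and 159 CPM and 201, 182, 186 and 190.1 CPM in knockouts on the standard and ketogenic diet. It likewise did not overlap (0.278 ± 0.061, adjusted p = 0.0337).

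Both depended on single libraries as Grin2a and Grin2b did. Shisa6 passed without KC888LL (adjusted p = 0.00174 in edgeR) or KC934R (0.0499), and without KC872RL, KC873RR, KC893RL, KC913RR, KC916RRL or KC935LL its adjusted p was 0.136, 0.121, 0.067, 0.0999, 0.0647 and 0.0502. Nrxn3 passed without KC888LL (0.00453), KC893RL (0.0487) or KC934R (0.0481), and without KC872RL, KC873RR, KC913RR, KC916RRL or KC935LL its adjusted p was 0.136, 0.125, 0.0787, 0.0542 and 0.054. Over these left-out libraries the log2 fold change was 0.416 to 0.627 for Shisa6 and 0.242 to 0.338 for Nrxn3. Neither passed with the 8 knockout libraries fitted alone (adjusted p = 0.162 and 0.196), with Xist as a covariate (0.212 and 0.217) or without the 4 libraries with Y-linked transcripts (0.746 and 0.761, at 0.337 and 0.188), and Shisa6 did not with no filter beyond 1 count (0.0727). In edgeR 0 of the 76 passed in the other 4 comparisons, with 21 at an unadjusted p under 0.05 between the genotypes on the standard diet (19 lower; 27.6%, against 14.3% of all genes), 9 on the ketogenic diet (11.8%, against 9.22%), 2 with the diet in wild type mice (2.63%, against 5.46%) and 7 for the interaction (9.21%, against 7.48%). Between the genotypes on the standard diet 52 of the 76 lay below 0, with a median of -0.095. Without KC888LL 14 of the 76 passed there, 13 lower and 1 higher, with a median of -0.125, and 12 passed with the diet in knockouts, 10 higher and 2 lower, with a median of 0.13, where 5.73% and 6.18% of all genes passed.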

How the data were processed

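The deposited table holds whole-number read counts per gene for 16 libraries of mouse hippocampus RNA, made by the authors before deposit. Per the submitters' processing notes the genome build was mm10 and DESeq2 was used, with no version; aligner, counter, annotation and strand setting are not given in the sources used here. All 16 count columns were tied to a group by their names, and 0 columns were left without one. With R 4.3.3 and edgeR 4.0.16, genes were filtered with filterByExpr (17469 of 49315 kept), scaled with TMM and fitted with 1 coefficient for each of 4 groups by the robust quasi-likelihood method (12 residual degrees of freedom). The 4 pairwise contrasts and the interaction were tested on both sides, with Benjamini-Hochberg adjustment over all tested genes, and a gene passed at an adjusted p under 0.05. CPM are counts per 1000000 of the library total over tested genes, after that total was multiplied by the TMM factor. The factor ran from 0.976 (KC913RR) to 1.034 (KC872RL). Levels per kilobase use GENCODE M21 exons (GRCm38), which matched 49056 of 49315 identifiers and all 34 member names. Ratios of 2 genes were compared by exact permutation over 4 against 4 libraries. Alternatives were DESeq2 1.42.0 (NA kept), limma 3.58.1 (voom), other scaling, no filter, the compared groups alone, an Xist covariate and leaving out each library in turn; leaving out the 4 libraries with Y-linked transcripts, and KC888LL with KC890RL, was chosen after seeing the data. The scripts were tested on simulated counts. The members and all gene lists were chosen with earlier results of these data known. Given library by library are members that passed (up to 4 in each direction by p), otherwise the 2 of smallest p in a comparison, the highest member of each family per kb, and Gria1, Gria2, Grin1, Grin2a, Grin2b, Grm5, Dlg4 and Shank3; of the other synapse genes, those that passed. The labels call the samples animals, but nothing more ties a library to a separate animal, and p-values measure the spread between these libraries.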

Additional observations from a re-analysis of the deposited data

Results flagged for a closer look

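Among 80 groups of 4 libraries examined (18 members and 2 ratios in each of the 4 groups), 4 had a library whose gap to its nearest neighbour took up more than 0.829 of the range of the group, as chance gives in about 1 in 20 groups. Gria2 stood at 1137 CPM in KC888LL, above the other knockouts on the standard diet at 1031 to 1043 CPM. Grin1 stood at 503.4 CPM in KC890RL, below the other wild type libraries on the standard diet at 525 to 528 CPM. Grin2a stood at 480.4 CPM in KC844RR, below the other wild type libraries on the ketogenic diet at 507 to 510.2 CPM. Grid1 stood at 68.74 CPM in KC894RLL, below the other wild type libraries on the standard diet at 76.7 to 78.0 CPM. For the members, no test showed an effect of the diet that differed between the genotypes at the threshold.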

How the results depend on the processing

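The number of members called was 0 in every alternative for the genotypes on the ketogenic diet, the diet in wild type mice and the interaction. With the diet in knockouts it was 2 (1.16% of all genes called), and 2 with DESeq2 size factors (1.13%) or limma-voom (0.893%), 5 with no filter beyond 1 count (0.697%), 8 in DESeq2 (2.03%), 0 with only the groups compared (0.0535%), 0 with Xist as a covariate (0.0401%), 0 without the 4 libraries with Y-linked transcripts (0.0169%), 10 without KC888LL and KC890RL (5.01%), and 0 to 11 when 1 library was left out (0.158% to 6.18%). For the genotypes on the standard diet it was 0 (0.00572%), then 6 without KC888LL and KC890RL (3.1%), and 0 to 9 when 1 library was left out (0% to 5.73%). The shares with no filter beyond 1 count and in DESeq2 are of 33151 genes, with 34 members tested. Those of the main fit are of 17469 genes, with 33 members. The interaction has no fit with only the groups compared. Signs turned for values near 0. For the genotypes on the standard diet Gria2 moved from -0.03 to 0.005 with Xist as a covariate and to 0.019 without the Y-linked libraries, and Grm5 from -0.056 to 0.007 and 0.071. With the diet in knockouts Gria2 moved from 0.046 to -0.006 with Xist, and Grm5 from 0.082 to -0.013 with Xist and -0.027 without the Y-linked libraries. With 1 library left out, the log2 ratio of Grin2a to Grin2b ranged from -0.013 to 0.088 with the diet in knockouts and from -0.025 to 0.033 in wild type mice, and that of Gria1 to Gria2 from -0.063 to 0.092 between the genotypes on the ketogenic diet. With the diet in knockouts the Gria1 to Gria2 difference ranged from 0.114 to 0.161, and 3 against 4 libraries gave an exact permutation p of up to 0.0571. The cause of these shifts was not tested. DESeq2 size factors moved the median of all genes by at most 0.004. No paired analysis was possible because the columns carry no replicate numbers that tie them to the numbered titles. Genes with a low count, Grm8 and Grm4 above all, have the widest errors.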
